A study of Mus musculus with 8 samples.

Results

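Astrocyte lineage genes were followed in neurosphere cultures grown from mouse fetuses with Kat7 deleted, beside cultures with Kat7 intact. The group comprises 37 mouse genes taken from a list of symbols, each matched to its Entrez identifier in a table of 27179 genes, and all 37 were found. Of these, 35 were among the 13498 genes with enough reads for a test, while Gjb6 and Mt2 had too few. The list holds the classical markers of astrocytes and genes for neurotransmitter uptake, ion and water transport, adhesion, lipid handling, secreted proteins, metallothioneins, nuclear factor I proteins and receptors.

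Astrocytes are the glial cells that clear glutamate, buffer potassium, move water and feed neurons, and in the fetal brain they arise from the same precursors that first make neurons. As these precursors turn to gliogenesis, signalling through gp130 and STAT3, together with nuclear factor I proteins, switches on genes such as Gfap. Many astrocyte genes, among them Slc1a3 and Fabp7, are already active in the radial glial precursors themselves, so they mark a lineage and not only a mature cell.

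The cultures came from 4 Kat7 deleted fetuses (Kat7lox/loxNesCreT/+) and were set against cultures from 4 Kat7 intact fetuses (Kat7+/+NesCreT/+). All were of strain C57BL/6 and stage E14.5, and all carried the same Cre recombinase transgene, which is driven by Nestin and so acts in neural precursors. Kat7 codes for HBO1, an enzyme that acetylates histone H3. The cells grew as neurospheres, which are floating clusters of dividing precursors, in a medium that keeps them proliferating, and polyadenylated RNA was read as 100 bp single-end reads. Each genotype came from 3 litters, deleted replicates 3 and 4 and intact replicates 1 and 2 were littermates, and each litter gave fetuses of 1 genotype, so that effects of litter and of genotype cannot be told apart. The groups thus rest on 4 fetuses from 3 litters each. The p-values set the difference between groups against the spread between these cultures and, unless stated otherwise, treat littermates as independent.

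Kat7 itself (Entrez 217127, chromosome 11, 95271853 to 95310246 in GRCm38) was low in all 4 deleted libraries, but unevenly. Deleted replicates 1 to 4 held 26.4, 0.367, 13.9 and 0.0870 CPM (reads of a gene relative to the scaled total of its library), against 85.8, 77.1, 81.0 and 92.1 CPM in intact replicates 1 to 4. Deleted replicates 1 and 3 thus kept 31.4% and 16.5% of the intact mean, and replicates 2 and 4 kept 0.437% and 0.104%. The groups did not overlap (exact two-sided permutation p = 0.0286, the smallest that 70 arrangements allow), while edgeR gave a log2 fold change of -3.02 ± 1.10 (adjusted p = 0.128). Library totals ran from 10687817 to 18280518 counts in deleted and from 13403953 to 22444359 in intact libraries. The mitochondrial genome gave 29.9%, 19.0%, 17.1% and 34.4% of the counts in deleted replicates 1 to 4 and 19.0% to 23.5% in intact libraries.

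The neurospheres expressed neural stem cell markers in both genotypes. Over 8 such genes the summed level was 2274 to 4465 CPM in deleted and 3412 to 4344 CPM in intact libraries. By edgeR 0 of them were called in either direction, against 7.90% of all tested genes. DESeq2 called 1 of them lower, against 6.59%, and by edgeR 1 was lower at an unadjusted p under 0.05, against 10.4%. Vim, which had the highest CPM of them, encodes an intermediate filament protein of precursors and astrocytes and stood at 1636 ± 510 CPM in deleted and 1884 ± 209 CPM in intact libraries (SD, n = 4, as for every mean below). In such bulk RNA, fewer cells of a type and less RNA per cell cannot be told apart.

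To show the stretch of genome where transcription of key members begins, 4 promoter windows are printed 5′ to 3′ on the strand of the gene, each with 250 bases before and 50 after the start in RefSeq for GRCm38.p6. Gfap, Cd38 and Kcnj10 lay above every intact library in all 4 deleted libraries, and Slc1a3 in deleted replicate 1 alone. Capitals mark matches to the searched motifs. The Gfap window is chr11:102897151-102897450 on the minus strand, the Cd38 window chr5:43868559-43868858 on the plus strand, the Kcnj10 window chr1:172340960-172341259 on the plus strand, and the Slc1a3 window chr15:8710758-8711057 on the minus strand.
Gfap: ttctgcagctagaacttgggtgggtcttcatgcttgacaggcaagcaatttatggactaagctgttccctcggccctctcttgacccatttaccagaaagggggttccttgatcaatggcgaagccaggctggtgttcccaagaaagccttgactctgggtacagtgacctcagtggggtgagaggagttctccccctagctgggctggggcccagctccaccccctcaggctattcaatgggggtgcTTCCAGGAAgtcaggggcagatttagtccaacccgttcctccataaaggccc
Cd38: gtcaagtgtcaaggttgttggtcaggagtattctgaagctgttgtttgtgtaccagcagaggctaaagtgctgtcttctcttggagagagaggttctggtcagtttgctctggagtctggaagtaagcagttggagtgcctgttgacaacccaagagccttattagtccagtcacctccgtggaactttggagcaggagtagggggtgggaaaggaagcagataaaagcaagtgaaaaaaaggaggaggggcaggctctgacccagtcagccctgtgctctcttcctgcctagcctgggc
Kcnj10: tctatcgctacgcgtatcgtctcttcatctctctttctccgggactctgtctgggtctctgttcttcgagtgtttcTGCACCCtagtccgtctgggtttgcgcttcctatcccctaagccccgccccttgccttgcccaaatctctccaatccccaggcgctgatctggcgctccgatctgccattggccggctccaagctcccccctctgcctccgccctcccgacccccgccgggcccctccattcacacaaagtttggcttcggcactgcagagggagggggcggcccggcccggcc
Slc1a3: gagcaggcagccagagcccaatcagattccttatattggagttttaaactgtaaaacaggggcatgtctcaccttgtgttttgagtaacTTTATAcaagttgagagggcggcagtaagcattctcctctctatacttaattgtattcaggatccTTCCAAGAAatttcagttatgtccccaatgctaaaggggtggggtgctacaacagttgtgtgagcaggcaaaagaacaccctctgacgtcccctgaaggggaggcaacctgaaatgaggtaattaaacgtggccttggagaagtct

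The motifs were searched on both strands. The letters TTGGCA stood for the core of a nuclear factor I site, TTCNNNGAA for a STAT site and TGANTCA for an AP-1 site. The core of the metal response element was searched as TGCACNC, with its other form TGCGCNC searched separately, and the TATA box as TATAAA. In the Gfap window the capitals are a STAT match whose first base is at -2 relative to the start, and in the Slc1a3 window they are a STAT match at -96 and a TATA match on the other strand at -161. The Kcnj10 capitals are a metal response core at -174, and the Cd38 window held none of the searched letters. Of the 37 genes, 32 had a window. Counted by gene, the STAT letters were in 5 of them (Gfap, Slc1a3, Acsbg1, Nfix and Ntsr2), against 9.55% of the 27025 genes with a window in the RefSeq table, and the nuclear factor I core was in 6 (S100b, Hepacam, Apoe, Tnc, Mt1 and Slc15a2), against 16.1%. The AP-1 letters were in 3 genes of the group and in 8.97% of all these genes, and TATAAA in 5 and in 15.7%. TGCACNC was in 7 and TGCGCNC in 9, against 14.2% and 17.0% of all these genes. Mt1 and Mt2, whose products bind metals, held both forms, as did Cd44. No marked stretches overlap in the printed windows, and these are matches of letters only.

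Astrocyte lineage genes lay higher in Kat7 deleted than in intact cultures for a large share of the list, and with all 8 libraries no member was called lower. In the edgeR quasi-likelihood test with Benjamini-Hochberg adjustment over all genes tested, 10 of the 35 tested members were called higher, against 5.10% of all tested genes, and 0 were called lower, against 2.80% of all tested genes. At an unadjusted p under 0.05, 18 members were higher and 1 was lower, against 15.8% and 10.4% of all tested genes. DESeq2 called 14 higher and 0 lower, against 9.71% and 6.59% of all tested genes. It gave no adjusted p for Gfap and Slc1a2. Both edgeR and DESeq2 here treat littermates as independent. With littermates summed, 4 members were called higher (Aqp4, Apoe, Htra1 and Cd38), against 0.764% of all genes tested, and with litter as a random block 5 were (Aqp4, Kcnj10, Apoe, Cd38 and Ndrg2), against 1.74%. The median log2 fold change was 1.12 over the tested members and 0.05 over all tested genes. With scaling by library totals alone these medians were 0.96 and -0.09. The read filter asked for a minimum level in at least 4 libraries. Of the tested members, 29 reached it in all 4 intact libraries, and 6 needed deleted libraries to pass. Of these 6, Cd38 reached the minimum in no intact library, Gfap and Ndrg2 in 1, Kcnj10 in 2, and Ntsr2 and Dio2 in 3.

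**Figure D1:**
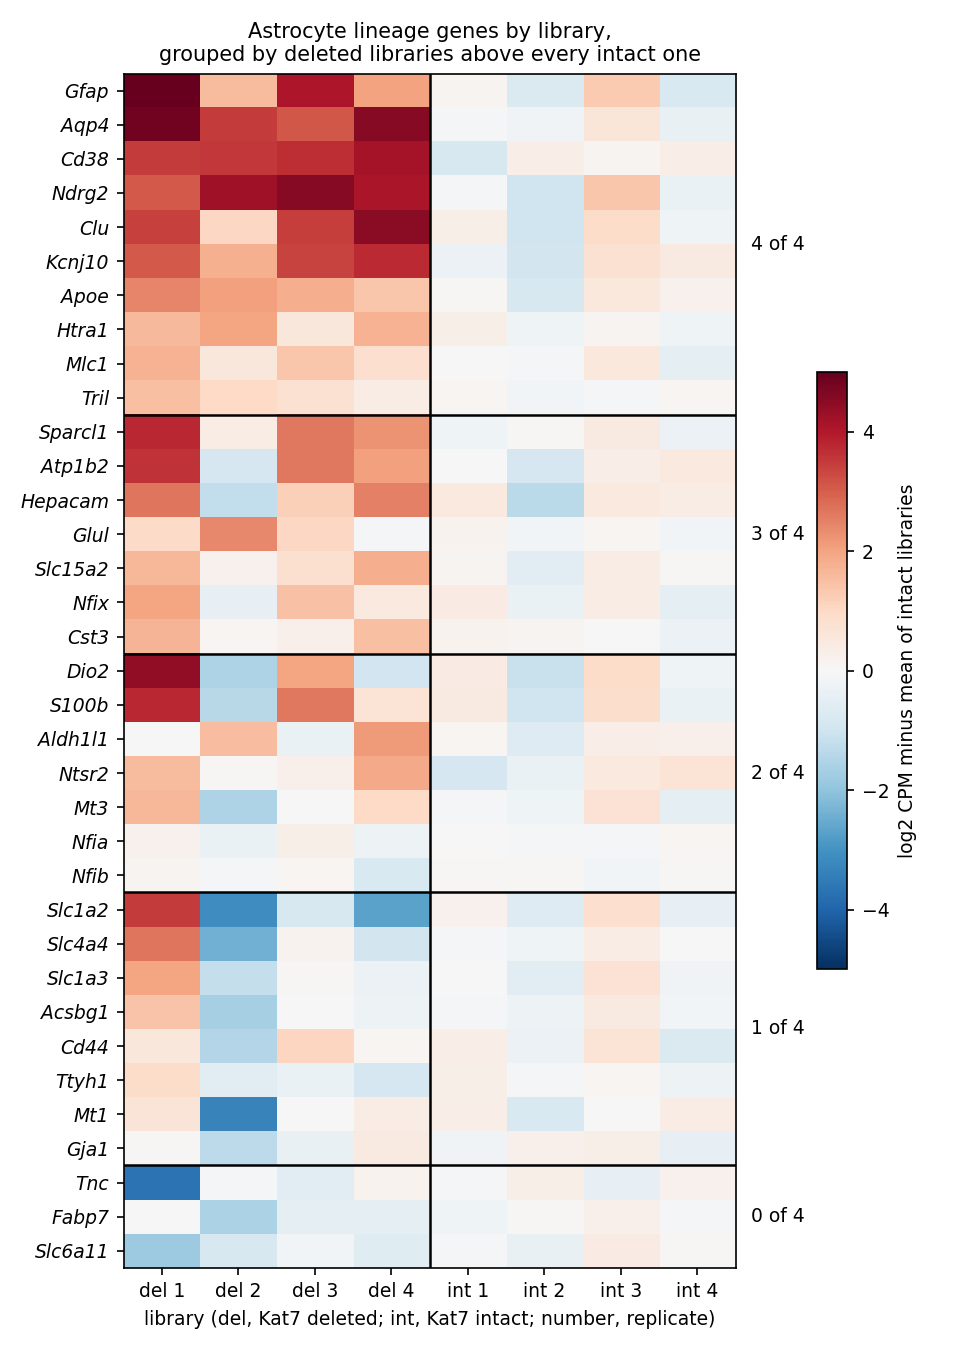
Level of each of the 35 tested members in each library, as log2 CPM minus the mean of the 4 intact libraries, with deleted replicates on the left and intact replicates on the right. Rows run from genes above every intact library in all 4 deleted replicates to genes above it in none. Deleted replicate 1 is the highest deleted library for 21 of the 35 tested genes (31.0% over all tested genes), and the colour scale ends at 5, below the Gfap value of 8.20 in that library.

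Which deleted cultures carried the difference varied from gene to gene. Set against the highest intact library, 10 members lay above it in all 4 deleted libraries, 7 in 3 of them, 7 in 2, 8 in 1 and 3 in none. Over all tested genes the shares were 10.7%, 14.0%, 17.9%, 26.9% and 30.6%. No member lay below every intact library in all 4 deleted ones, against 9.21% of all tested genes.

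The 10 members above every intact library in all 4 deleted libraries were Gfap, Aqp4, Kcnj10, Mlc1, Apoe, Clu, Htra1, Tril, Cd38 and Ndrg2. All but Gfap were also called by edgeR. Gfap, Kcnj10, Cd38 and Ndrg2 needed deleted libraries to pass the read filter, so their place among the tested genes depended on being high there. Mean levels of the 10 genes per kilobase of transcript ran from 1.09 to 228 RPKM in deleted and from 0.0768 to 102 RPKM in intact libraries. The 7 members above it in 3 deleted libraries were Glul, Atp1b2, Hepacam, Sparcl1, Cst3, Nfix and Slc15a2. For all of these but Glul the library that stayed behind was deleted replicate 2, and for Glul it was replicate 4. S100b, Nfia, Nfib and Dio2 exceeded intact libraries in deleted replicates 1 and 3, Mt3 and Ntsr2 in replicates 1 and 4, and Aldh1l1 in replicates 2 and 4. Slc1a2, Slc1a3, Slc4a4, Ttyh1, Acsbg1 and Mt1 did so in deleted replicate 1 alone, Cd44 in replicate 3 and Gja1 in replicate 4. Slc6a11, Fabp7 and Tnc did so in none.

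Among the deleted cultures, replicate 1 stood highest and replicate 2 lowest by the median member of the list. Relative to the intact mean, the median member lay 1.68, -0.11, 0.75 and 0.70 log2 units away in deleted replicates 1 to 4, and 0.04, -0.30, 0.40 and -0.15 units away in intact replicates 1 to 4. Deleted replicate 1 exceeded every intact library by at least 2-fold for 21 of the 35 members, against 7.16% of all tested genes, and deleted replicates 3 and 4 did so for 12 and 13, against 3.37% and 5.73%. Deleted replicate 2 did so for 8 members, against 5.44%, and lay below every intact library for 15 members (42.9%), against 35.6% of all tested genes. The deleted culture with the most remaining Kat7 and a mitochondrial share of 29.9% was thus the highest. Of the 2 with next to no Kat7 reads, 1 was the lowest deleted culture and the other lay beside replicate 3. The part of remaining Kat7 and of the mitochondrial share in these differences was not tested. With deleted replicates 1 and 3 left out, 9 of 36 tested members were called higher, against 8.41% of all genes tested, and 3 lower (Slc1a2, Slc4a4 and Ttyh1), against 8.26%. With deleted replicates 1 and 4 left out 7 of 35 were called higher, against 5.42%, and 0 lower, against 4.25%.

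The members also spread more than most genes within a genotype. Their median SD of log2 CPM was 1.03 in deleted and 0.45 in intact libraries, against 0.38 and 0.17 over all tested genes. Between littermates, deleted replicates 3 and 4 differed by a median of 0.87 log2 units over the members, with 14 of 35 at least 2-fold apart, and intact replicates 1 and 2 by 0.50 units, with 6 of 35. Over all tested genes the littermate medians were 0.32 and 0.15 log2 units. Unrelated deleted pairs ran from 1.03 to 1.56 units and unrelated intact pairs from 0.31 to 0.78 units over the members.

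Among the classical markers, Gfap and S100b were far higher in some deleted cultures than in any intact one. Of the 3 classical markers edgeR called 0, with 2 higher at an unadjusted p under 0.05. DESeq2 gave no adjusted p for Gfap and did not call the others. Gfap (Entrez 14580, chromosome 11, 102887336 to 102897200), the glial intermediate filament protein by which astrocytes are commonly recognised, had 147, 1.38, 8.07 and 1.91 CPM in deleted replicates 1 to 4, against 0.428, 0.179, 1.12 and 0.174 CPM in intact replicates 1 to 4. The groups did not overlap, yet deleted replicate 2 (15 reads) lay close to intact replicate 3 (23 reads in a deeper library), and the deleted cultures spanned 106-fold among themselves. The fitted log2 fold change was 6.34 ± 1.74 (adjusted p = 0.0605), and without deleted replicate 1 it was 2.98 (adjusted p = 0.0540). Without deleted replicate 2 Gfap was called (6.73, adjusted p = 0.0307).

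S100b, a calcium-binding protein of astrocytes, had 111, 3.03, 51.2 and 13.2 CPM in deleted replicates 1 to 4 and 11.1, 3.95, 14.9 and 6.46 CPM in intact replicates 1 to 4. Deleted replicates 1 and 3 were high, replicate 4 lay within the intact range and replicate 2 below it (log2 fold change 2.30 ± 0.94, adjusted p = 0.164). Aldh1l1, the folate enzyme used as a pan-astrocyte marker, ran the other way among cultures. It had 31.6, 93.5, 25.4 and 139 CPM in deleted replicates 1 to 4 and 34.2, 20.2, 40.2 and 38.1 CPM in intact ones, so that replicates 2 and 4, low for S100b, were the high ones (1.12 ± 0.53, adjusted p = 0.219). An antisense gene shares 11.0% of the exon bases of Aldh1l1, and as the strand setting of the counting is not given in the sources used here, their reads cannot be told apart.

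**Figure D2:**
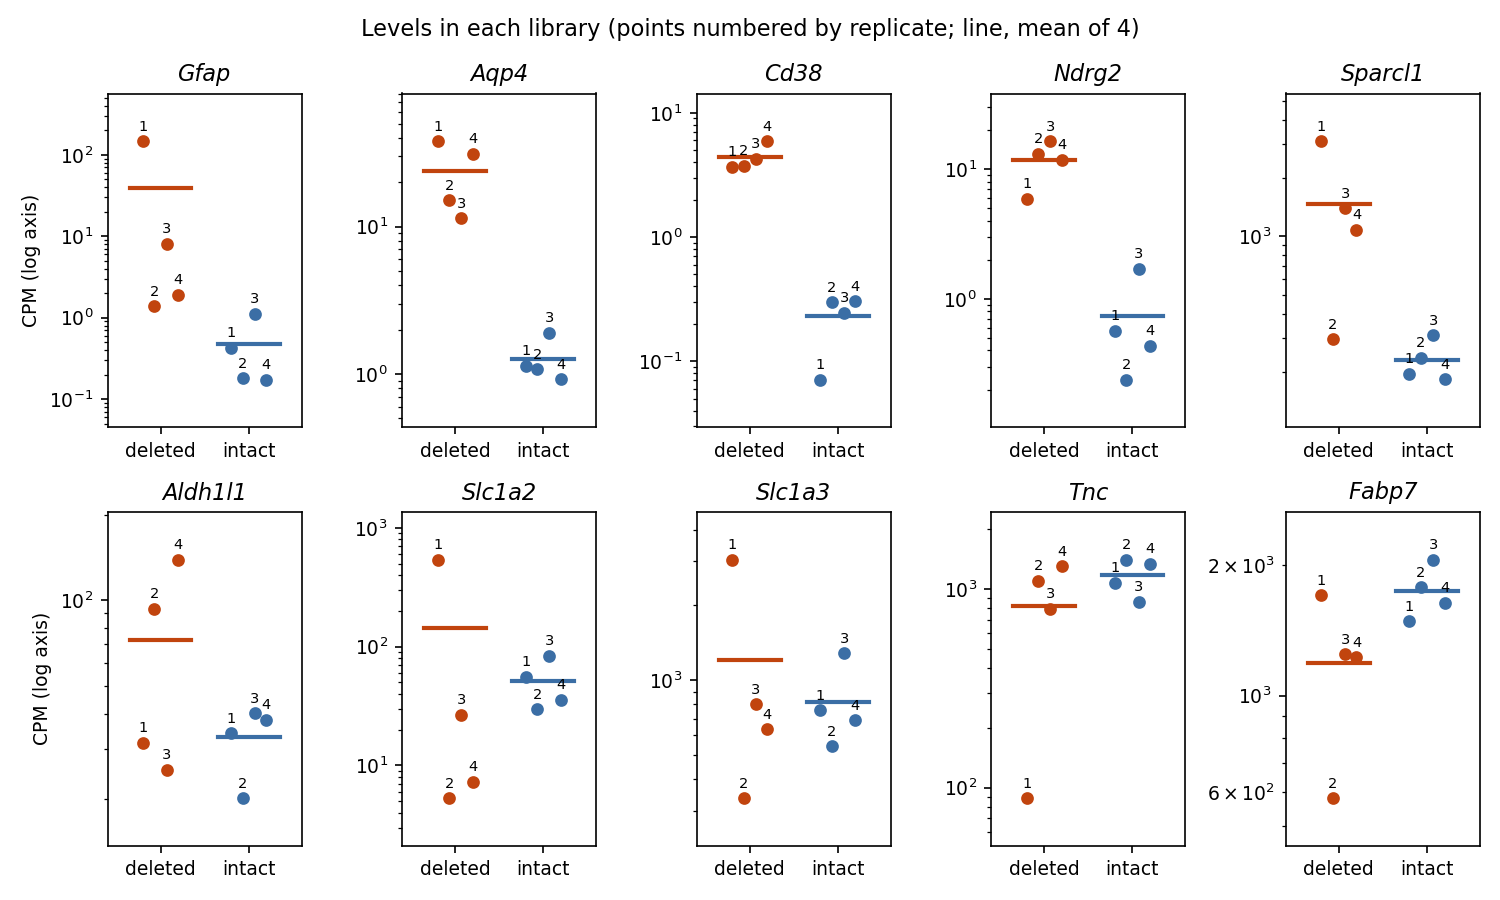
CPM on a log axis of selected members, 1 numbered point per library and a line at the mean of 4, with deleted libraries on the left and intact libraries on the right of each panel. The 4 deleted points of Cd38 lie between 3.68 and 5.91 CPM and those of Slc1a2 between 5.32 and 540.2 CPM.

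Genes of glutamate and GABA handling differed widely between cultures, and edgeR called 0 of 4. At an unadjusted p under 0.05 there was 1 higher and 1 lower. DESeq2 called Glul higher and gave no adjusted p for Slc1a2. Slc1a2, the glutamate transporter GLT-1 of maturing astrocytes, had 540.2, 5.32, 26.8 and 7.30 CPM in deleted replicates 1 to 4 and 55.7, 29.8, 84.2 and 35.8 CPM in intact ones. Deleted replicate 1 was 6.42-fold above the highest intact library, while the other 3 lay below the lowest intact library. The log2 fold change of 1.50 ± 1.32 (adjusted p = 0.506) turned to -1.95 (adjusted p = 0.0857) without deleted replicate 1, and to -3.02 (adjusted p = 0.00845) with deleted replicates 1 and 3 left out. Slc1a3, the glutamate transporter GLAST that radial glia already use, kept the same order of cultures. It had 3037, 337, 800.5 and 637 CPM in deleted replicates and 759, 543, 1279 and 691 CPM in intact ones (0.56 ± 0.64, adjusted p = 0.614), and without deleted replicate 1 its value was -0.47.

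Glul, glutamine synthetase, had 292, 804, 307 and 141 CPM in deleted replicates 1 to 4 and 171, 137, 162 and 138 CPM in intact ones. Here deleted replicate 2 was the highest and replicate 4 lay among the intact libraries (log2 fold change 1.34 ± 0.46, adjusted p = 0.110). Slc6a11, the GABA transporter GAT-3, stood at 43.4 ± 18.9 CPM in deleted and 73.1 ± 16.6 CPM in intact libraries. It was the one member lower at an unadjusted p under 0.05, with a log2 fold change of -0.75 ± 0.33 (adjusted p = 0.186), and 3 of 4 deleted libraries lay below the intact range.

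Of the water, ion and acid-base genes, Aqp4 and Kcnj10 rose in all 4 deleted cultures. Aqp4 (Entrez 11829, chromosome 18, 15389394 to 15410982), the water channel of astrocyte endfeet, had 38.1, 15.1, 11.4 and 31.3 CPM in deleted replicates 1 to 4, against 1.14, 1.08, 1.91 and 0.916 CPM in intact ones. The lowest deleted library was 5.99-fold above the highest intact one. The means were 24.0 ± 12.8 CPM in deleted and 1.26 ± 0.442 CPM in intact libraries, a ratio of 19.0 (log2 fold change 4.24 ± 0.47, adjusted p = 0.00483). The exact permutation p of 0.0286 only restates that the groups did not overlap, as was so for 19.9% of all tested genes in either direction. Kcnj10 (Entrez 16513, chromosome 1, 172341210 to 172374085), the inward rectifier Kir4.1 that buffers potassium, had 5.58, 2.20, 6.92 and 8.87 CPM in deleted and 0.428, 0.239, 1.03 and 0.785 CPM in intact replicates. It was 9.51-fold higher by the means (3.21 ± 0.55, adjusted p = 0.0147), with the groups apart, and lost its call without intact replicate 1, 2 or 4 and with littermates summed (adjusted p up to 0.0836).

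Slc4a4, the sodium bicarbonate cotransporter, followed the order of Slc1a2. It had 495, 14.6, 88.4 and 40.5 CPM in deleted replicates and 71.6, 65.8, 99.2 and 75.8 CPM in intact ones (log2 fold change 1.03 ± 0.90, adjusted p = 0.502), and its value was -0.70 without deleted replicate 1. Atp1b2, a beta subunit of the sodium-potassium pump, had 108, 4.77, 54.6 and 36.3 CPM in deleted and 8.84, 4.84, 11.1 and 12.1 CPM in intact replicates. Deleted replicate 2 lay just below the lowest intact library, and the others were 2.99-fold to 8.88-fold above the highest intact one (2.46 ± 0.75, adjusted p = 0.0817).

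Mlc1, a membrane protein of astrocyte junctions that works with Hepacam and is mutated in a human leukodystrophy with cysts, was called higher in 5 of 19 settings, the fit to all 8 libraries among them. Mlc1 (Entrez 170790, chromosome 15, 88955884 to 88982693) had 767, 344, 598 and 413 CPM in deleted and 234, 218, 332 and 167 CPM in intact replicates, 2.23-fold by the means (log2 fold change 1.16 ± 0.30, adjusted p = 0.0483). Deleted replicate 2 exceeded intact replicate 3 by a factor of 1.04, and the call was lost without any 1 intact library or deleted replicate 1, 3 or 4 and with littermates summed (adjusted p up to 0.165). It was also lost with DESeq2-type size factors (1.14, adjusted p = 0.0509) and by library totals alone (1.00, adjusted p = 0.0843), where the groups overlapped. Hepacam, its adhesion partner, stood at 93.2, 6.15, 33.5 and 84.5 CPM in deleted and 20.2, 5.74, 20.8 and 18.8 CPM in intact replicates (1.73 ± 0.74, adjusted p = 0.181). Its 2 low libraries, deleted replicate 2 and intact replicate 2, lay beside each other.

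Of the gap junction genes, Gja1 did not pass the test and Gjb6 was almost unread. Gja1, connexin 43, stood at 32.7 ± 15.0 CPM in deleted and 37.5 ± 8.71 CPM in intact libraries (log2 fold change -0.19 ± 0.34, adjusted p = 0.757). Gjb6, connexin 30, a gene of mature astrocytes, had 0 reads in all 4 deleted libraries, and in intact libraries it had 3 reads in replicate 3 (exact 95% Poisson interval 0.619 to 8.77) and 0 in the others. A count of 0 has an interval of 0 to 3.69 reads, and 3 reads are at most 0.275 CPM in these libraries. Ttyh1, a chloride channel of radial glia and astrocytes, stood at 19.5 ± 12.4 CPM in deleted and 20.2 ± 3.24 CPM in intact libraries (-0.04 ± 0.37, adjusted p = 0.954).

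**Figure D3:**
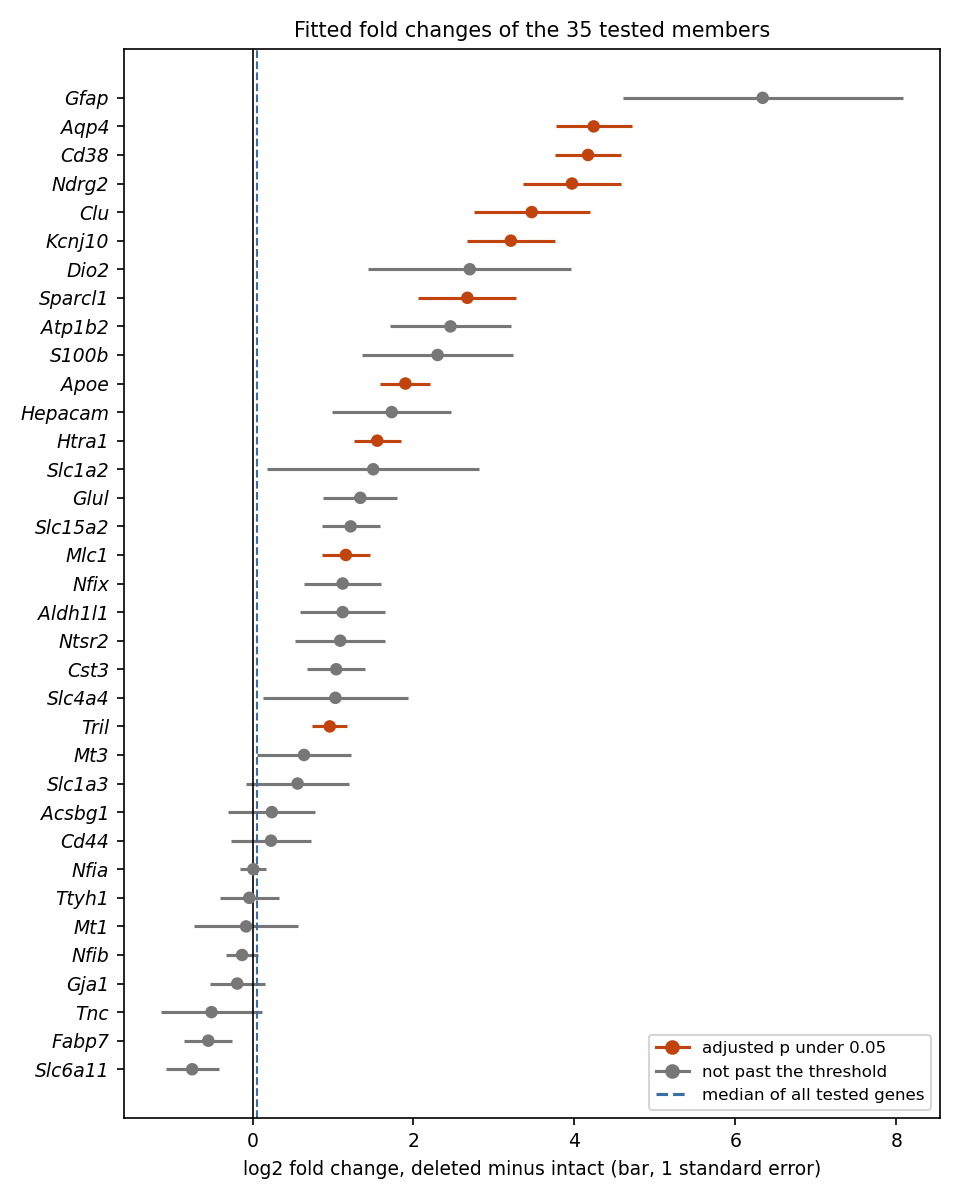
Log2 fold change of each tested member, deleted minus intact, with its approximate standard error as a bar. Red points are the 10 genes called by edgeR, grey points the others and the dashed line the median of all tested genes. The called genes run from Tril at 0.96 to Aqp4 at 4.24, and Gfap, not called, stands at 6.34 with a standard error of 1.74.

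Among lipid genes the carriers rose and the enzyme and binding protein of precursors did not pass the test. Apoe (Entrez 11816, chromosome 7, 19696244 to 19701310), the main lipoprotein of brain made by astrocytes, had 43.4, 33.1, 28.2 and 21.2 CPM in deleted replicates 1 to 4 and 8.27, 4.54, 11.6 and 9.25 CPM in intact ones. The groups were apart, the ratio of means was 3.74 and the spread among deleted cultures was 2.05-fold, narrow for this list (log2 fold change 1.90 ± 0.31, adjusted p = 0.0134). Clu (Entrez 12759, chromosome 14, 65968483 to 65981548), clusterin, a secreted chaperone that travels on lipoproteins, had 16.3, 3.03, 17.1 and 35.5 CPM in deleted and 1.78, 0.658, 2.79 and 1.22 CPM in intact replicates. Deleted replicate 2 was again lowest, just above intact replicate 3 (3.47 ± 0.72, adjusted p = 0.0287), and the call was lost without any 1 intact library, with deleted replicates 1 and 4 left out, with no filter on low counts, with littermates summed and with litter as a random block (adjusted p up to 0.118). Apoe lost its call without intact replicate 1 or 4 (adjusted p up to 0.0564) and kept it in 16 of 19 settings.

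Acsbg1, an acyl-CoA synthetase of glia, had 1154, 137, 430.2 and 357 CPM in deleted and 420.2, 357, 590.2 and 389.6 CPM in intact replicates, high in deleted replicate 1 alone (log2 fold change 0.24 ± 0.54, adjusted p = 0.813). Fabp7, the brain lipid-binding protein of radial glia, was the most abundant member per length, at 1561 RPKM in deleted and 2285 RPKM in intact libraries. It had 1703, 581, 1247 and 1228 CPM in deleted and 1486, 1781, 2059 and 1639 CPM in intact replicates (-0.55 ± 0.30, adjusted p = 0.278), and 3 of 4 deleted libraries lay below the intact range.

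Of the 5 secreted and matrix genes, Sparcl1 and Htra1 were called higher. Sparcl1 (Entrez 13602, chromosome 5, 104079108 to 104114088), the matricellular protein hevin that acts at synapses, had 3096, 295, 1399 and 1085 CPM in deleted and 196, 237, 309 and 183 CPM in intact replicates. It was called (log2 fold change 2.67 ± 0.61, adjusted p = 0.0376, 6.35-fold by the means), although deleted replicate 2 lay below intact replicate 3. The call held in 7 of 19 settings. Among others, it was lost without any 1 intact library or deleted replicate 3 or 4, with no filter on low counts, with littermates summed and with litter or replicate number as a block (adjusted p up to 0.144). Htra1 (Entrez 56213, chromosome 7, 130936203 to 130985658), a secreted serine protease, had 29.8, 38.3, 14.3 and 32.8 CPM in deleted and 12, 8.37, 10.6 and 8.24 CPM in intact replicates. All deleted libraries lay above the intact ones, replicate 3 least so (1.55 ± 0.29, adjusted p = 0.0197 with all libraries). The call held in 12 of 19 settings. It was lost without any 1 intact library, with litter or replicate number as a block and with deleted replicates 1 and 4 left out (adjusted p up to 0.0837).

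Cst3, cystatin C, an inhibitor of cysteine proteases, stood at 140.2, 46.2, 51.6 and 123 CPM in deleted and 49.0, 48.5, 43.2 and 35.2 CPM in intact replicates, with deleted replicate 2 inside the intact range (log2 fold change 1.04 ± 0.36, adjusted p = 0.117). Tnc, tenascin C, a matrix protein of the precursor niche, had 88.6, 1100.1, 795 and 1303 CPM in deleted and 1075, 1407, 863 and 1343 CPM in intact replicates. Here deleted replicate 1, the highest for most members, was by far the lowest (-0.51 ± 0.63, adjusted p = 0.643). Cd44, the hyaluronan receptor of astrocyte-restricted precursors, stood at 38.7 ± 22.8 CPM in deleted and 33.1 ± 14.1 CPM in intact libraries (0.23 ± 0.50, adjusted p = 0.806).

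The metallothioneins, small metal-binding proteins that astrocytes make in quantity, gave no edgeR or DESeq2 call and 0 at an unadjusted p under 0.05 among the 2 tested. Mt3, the brain form, had 56.2, 5.97, 17.6 and 35.6 CPM in deleted and 17.0, 15.0, 28.9 and 13.0 CPM in intact replicates (log2 fold change 0.64 ± 0.58, adjusted p = 0.519), and Mt1 stood at 14.1 ± 9.24 CPM in deleted and 15.0 ± 4.79 CPM in intact libraries (-0.08 ± 0.65, adjusted p = 0.954). In both genes deleted replicate 2 was the lowest of the 8 libraries. Mt2 had 5, 5, 7 and 17 reads in deleted and 7, 1, 4 and 39 reads in intact replicates, too few for the test, and 73.5% of its exon bases overlap an antisense gene. The groups overlapped for all 3 genes.

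Nuclear factor I proteins are transcription factors that promote the switch to astrocyte formation, and edgeR and DESeq2 called 0 of their 3 genes, with 1 higher at an unadjusted p under 0.05. Nfia had 207, 143, 222 and 151 CPM in deleted and 182, 172, 173 and 193 CPM in intact replicates (log2 fold change 0.01 ± 0.16, adjusted p = 0.982), and its sign changed with the scaling, being -0.13 by library totals alone. Nfib stood at 246 ± 63.1 CPM in deleted and 268 ± 17.3 CPM in intact libraries (-0.13 ± 0.20, adjusted p = 0.722). Nfix had 61.1, 11.5, 43.0 and 21.7 CPM in deleted and 20.3, 12.1, 19.8 and 11.2 CPM in intact replicates, highest in deleted replicates 1 and 3 (1.12 ± 0.48, adjusted p = 0.183). For all 3 genes deleted replicates 1 and 3 were above the intact range and replicate 2 was not.

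Among receptors, enzymes and the remaining members, Cd38, Ndrg2 and Tril rose in all 4 deleted cultures. Cd38 (Entrez 12494, chromosome 5, 43868809 to 43912374), an ectoenzyme that consumes NAD and is rich in astrocytes, had 3.68, 3.76, 4.28 and 5.91 CPM in deleted and 0.0713, 0.299, 0.245 and 0.305 CPM in intact replicates. It was the most even member among the 10 genes above the intact range, with a spread of 1.61-fold among deleted cultures and 245 reads in deleted against 18 in intact libraries. The log2 fold change was 4.17 ± 0.41 (adjusted p = 0.00375), with a ratio of means of 19.2. The groups did not overlap, which by itself fixes the exact permutation p at 0.0286. Ndrg2 (Entrez 29811, chromosome 14, 51905271 to 51914004), a cytoplasmic protein used as an astrocyte marker, had 5.90, 13.1, 16.4 and 11.8 CPM in deleted and 0.570, 0.239, 1.71 and 0.436 CPM in intact replicates. Deleted replicate 1 was here the lowest deleted library, at 3.44-fold above the highest intact one (3.97 ± 0.61, adjusted p = 0.0101), and the adjusted p was 0.0515 without intact replicate 4 and 0.0630 with littermates summed. Tril (Entrez 66873, chromosome 6, 53815468 to 53820825), an accessory protein of Toll-like receptors, had 212, 150.2, 127 and 96.8 CPM in deleted and 80.1, 69.1, 72.3 and 79.5 CPM in intact replicates. The rise was 1.95-fold by the means (0.96 ± 0.22, adjusted p = 0.0369), and Tril was called in 10 of 19 settings. The call was lost without any 1 intact library or deleted replicate 3, by library totals alone, with littermates summed and with litter or replicate number as a block (adjusted p up to 0.122). A gene on the opposite strand shares 21.4% of the exon bases of Tril.

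Slc15a2, the peptide transporter PEPT2, had 72.7, 26.6, 40.6 and 80.9 CPM in deleted and 25.3, 15.7, 29.8 and 23.6 CPM in intact replicates (log2 fold change 1.22 ± 0.36, adjusted p = 0.0705), with deleted replicate 2 inside the intact range. Dio2, the deiodinase by which astrocytes activate thyroid hormone, was highest in deleted replicate 1, with 19.3, 0.184, 3.40 and 0.348 CPM in deleted replicates 1 to 4, and had 1.07, 0.299, 1.57 and 0.654 CPM in intact replicates. The deleted cultures spanned 105-fold (2.70 ± 1.26, adjusted p = 0.214). This span is imprecise, as its low end is 2 reads in deleted replicate 2, where Gfap and Slc1a2 had 15 and 58. Ntsr2, a neurotensin receptor of astrocytes, stood at 2.09 ± 1.32 CPM in deleted and 0.960 ± 0.498 CPM in intact libraries (1.09 ± 0.56, adjusted p = 0.255).

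**Figure D4:**
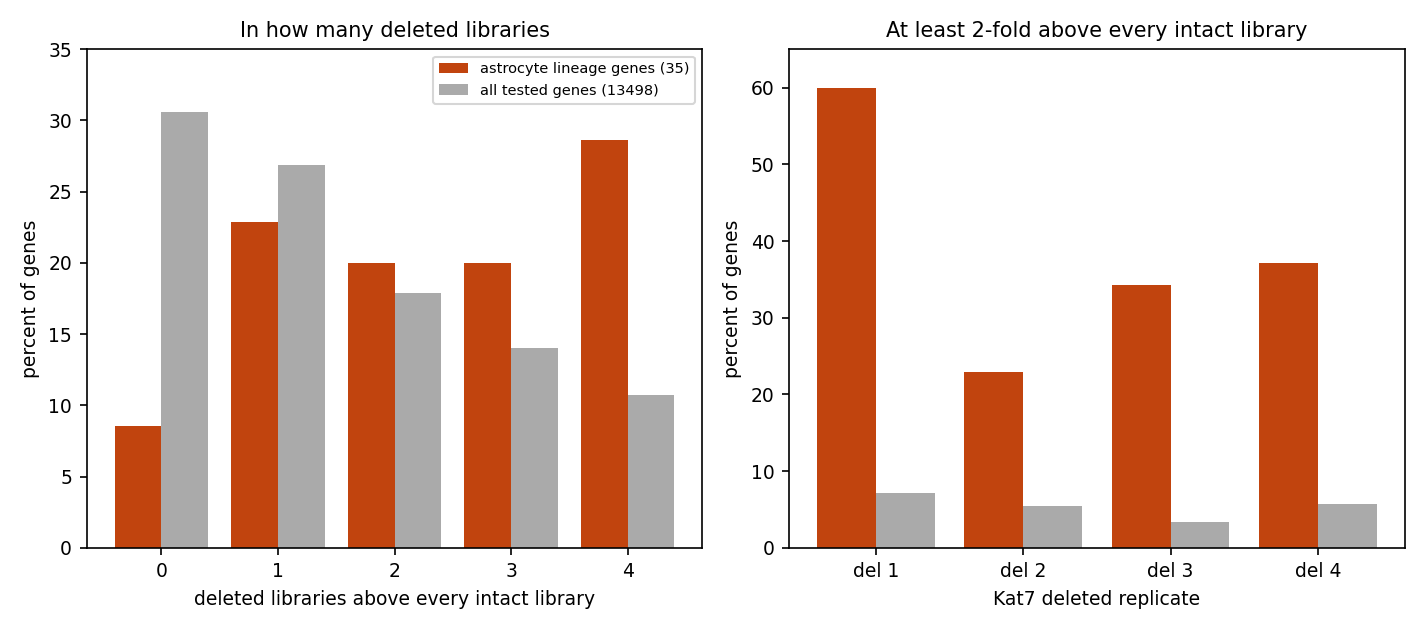
Share of the 35 tested astrocyte lineage genes beside the share of all 13498 tested genes, in percent of genes. The left panel groups genes by the number of deleted libraries above every intact one, where all 4 hold 28.6% of the members and 10.7% of all tested genes. The right panel gives the share at least 2-fold above every intact library in each deleted replicate, from 22.9% of the members in replicate 2 to 60.0% in replicate 1.

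Leaving out deleted replicate 2 raised the number of members called higher to 17, against 9.14% of all genes tested, and the number above every intact library in all remaining deleted libraries to 16, against 16.1%. The 7 further calls were Gfap, S100b, Atp1b2, Hepacam, Cst3, Nfix and Slc15a2, and none of the 10 calls was lost. Leaving out an intact library lowered the number called higher to 3, 4, 5 and 2 for replicates 1 to 4, against 1.09%, 0.766%, 1.10% and 0.748% of all genes tested, with Aqp4 and Cd38 called each time. The number of all genes called moved as well, to 2182 without deleted replicate 2 and to between 189 and 261 without an intact library, against 1066 with all libraries.

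Of 25 regulators of gliogenesis outside the group, all tested, edgeR called 2 higher and 1 lower, against 5.10% and 2.80% of all tested genes, and their median log2 fold change was 0.08. By unadjusted p under 0.05 there were 7 higher and 1 lower, against 15.8% and 10.4% of all tested genes. DESeq2 called 5 higher and 1 lower, against 9.71% and 6.59%. Zbtb20, a transcription factor that promotes astrocyte formation, stood at 37.3 ± 4.63 CPM in deleted and 13.6 ± 2.17 CPM in intact libraries (1.46 ± 0.16, adjusted p = 0.00483), and Il6st, the gp130 receptor subunit upstream of STAT3, at 169.7 ± 78.7 CPM in deleted and 74.6 ± 5.28 CPM in intact libraries (1.19 ± 0.28, adjusted p = 0.0388). Bmpr1b, a receptor for bone morphogenetic proteins, fell to 4.95 ± 5.22 CPM in deleted, against 34.5 ± 10.7 CPM in intact libraries (-2.78 ± 0.70, adjusted p = 0.0477). Among 4 restraints on gliogenesis, 2 had enough reads for the test and 1 was called, Lhx2, a homeodomain factor that holds back astrocyte formation in the hippocampus, which fell to 8.55 ± 0.705 CPM in deleted, against 16.5 ± 1.39 CPM in intact libraries (-0.95 ± 0.14, adjusted p = 0.00945). Zbtb20 kept its call in all 19 settings and Lhx2 in 18, being lost with littermates summed (adjusted p = 0.0643). Il6st was called in 11 and Bmpr1b in 10 of 19, and both were lost without any 1 intact library (adjusted p up to 0.119 and 0.130).

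Of 23 further astrocyte genes, 22 were tested. By edgeR 5 were called higher and 0 lower, against 5.10% and 2.80% of all tested genes. Their median log2 fold change was 0.83, against 0.05 over all tested genes. At an unadjusted p under 0.05, 9 were higher and 1 lower, against 15.8% and 10.4%. Aldoc, a glycolytic aldolase of astrocytes, had 1232, 72.1, 370.5 and 294 CPM in deleted and 54.2, 34.5, 62.1 and 43.3 CPM in intact replicates (log2 fold change 3.34 ± 0.75, adjusted p = 0.0358), the order of cultures of Sparcl1. Cbs, which makes cystathionine, had 3.55, 36.7, 11.1 and 47.6 CPM in deleted and 2.00, 0.777, 2.35 and 2.70 CPM in intact replicates, highest in deleted replicates 2 and 4 as was Aldh1l1 (3.64 ± 0.80, adjusted p = 0.0328). Fgfr3, a growth factor receptor of glial precursors, stood at 53.4 ± 7.81 CPM in deleted and 17.9 ± 6.20 CPM in intact libraries (1.58 ± 0.26, adjusted p = 0.0128), and Gpr37l1, an orphan receptor of astrocytes, at 19.5 ± 8.98 CPM in deleted and 3.72 ± 0.992 CPM in intact libraries (2.39 ± 0.40, adjusted p = 0.0144). Of 10 genes of reactive astrocytes, 5 were tested and 1 was called higher, against 5.10% of all tested genes. It was Cp, the copper carrier ceruloplasmin, at 191 ± 123 CPM in deleted and 52.0 ± 17.3 CPM in intact libraries (1.88 ± 0.44, adjusted p = 0.0405). Of these, Fgfr3 was called in 16 of 19 settings, Gpr37l1 in 14, Cbs and Cp in 10 and Aldoc in 9. With littermates summed all 5 lost their calls (adjusted p from 0.0545 to 0.128), and Cbs, Cp and Aldoc did so without any 1 intact library too.

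Markers of other cell types moved in both directions beside the astrocyte lineage genes, and their part in the result was not tested. Beside the counts that follow, edgeR called 5.10% of all tested genes higher and 2.80% lower. Of 12 oligodendrocyte lineage genes 9 were tested and 2 were called lower, Ugt8a at 0.283 ± 0.299 CPM in deleted and 5.69 ± 2.22 CPM in intact libraries and Gpr17 at 0.306 ± 0.297 CPM in deleted and 2.68 ± 1.34 CPM in intact libraries (adjusted p = 0.0150 and 0.0278). Ugt8a kept its call in 16 of 19 settings and Gpr17 in 7 of 18, with adjusted p up to 0.0546 and 0.101. The list's summed level was 486 to 1780.0 CPM in deleted and 1432 to 1799 CPM in intact libraries. Of 11 neuron genes 9 were tested and 2 were called lower, Neurod1 and Elavl3 (adjusted p = 0.0104 and 0.0116), with a summed level of 938 to 1274 CPM in deleted and 1134 to 1196 CPM in intact libraries, most of it from Map2 (778 to 1106 CPM in deleted and 1010.1 to 1056 CPM in intact libraries). Over the tested neuron genes the median log2 fold change was -0.19, and 0 were called higher. Dcx and Rbfox3, picked from this list after their values were seen, were high in deleted replicate 2. Dcx, of migrating young neurons, had 0.127, 101, 0.329 and 0.174 CPM in deleted and 0.641, 1.02, 0.880 and 1.26 CPM in intact replicates (log2 fold change 4.70 ± 1.99, adjusted p = 0.178), and Rbfox3 had 0.0634, 8.17, 0.714 and 2.96 CPM in deleted and 0.0713, 0.419, 0.147 and 0.523 CPM in intact ones. Mesenchymal and mural markers stood out in deleted replicate 2. Over 10 such genes the sum was 68.3, 699, 62.8 and 145 CPM in deleted replicates 1 to 4 and 23.5 to 36.9 CPM in intact libraries, and 1 of 3 tested was called higher, the smooth muscle actin gene Acta2 (adjusted p = 0.0322). Neurod1 and Elavl3 lost their calls with littermates summed (adjusted p = 0.0592 and 0.0751), and Acta2 kept its call in 9 of 18 settings (adjusted p up to 0.425).

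Ependymal and choroid plexus markers, 6 genes, summed to 22.1 to 49.3 CPM in deleted and 19.4 to 23.4 CPM in intact libraries. Foxj1, a regulator of motile cilia, was called higher among 4 tested, against 5.10% of all tested genes (log2 fold change 1.21 ± 0.23, adjusted p = 0.0214). Endothelial markers, 7 genes, summed to 1.65 to 15.7 CPM in deleted and 3.27 to 6.94 CPM in intact libraries. Kdr was called lower among 2 tested, against 2.80% of all tested genes (adjusted p = 0.0116, and 0.0501 without intact replicate 2). The Foxj1 call held in 13 of 19 settings, with adjusted p up to 0.113. Microglial markers, 9 genes, summed to 0.609 to 2.41 CPM in deleted and 2.84 to 3.71 CPM in intact libraries. Of these, 8 were under 1 CPM in every library and C1qa had no read in any. P2ry12, a purine receptor of microglia named here after its values were seen, had 2.09, 0.0918, 0.988 and 0 CPM in deleted replicates 1 to 4 and 3.21, 3.41, 2.49 and 3.14 CPM in intact ones, and the part of these cells in the levels of the astrocyte lineage genes was not tested.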

How the data were processed

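RNA-seq of 8 neurosphere cultures, 4 Kat7 deleted and 4 Kat7 intact, was analysed from raw counts of reads per Entrez gene that the authors deposited as whole numbers, with no normalization, for 27179 genes. The submitters' processing notes name featureCounts, CASAVA 1.8.2 and the build mm10. The aligner, annotation and strand setting are not given in the sources used here. The same deposited table holds gene lengths in bases, used for RPKM, and the 8 files of single libraries held the same counts.

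Symbols and coordinates were looked up in RefSeq genes of GRCm38.p6 by Entrez identifier (25271 matched, 1908 did not). The test was edgeR 4.0.16 under R 4.3.3 (filterByExpr with a minimum count of 10, TMM, robust dispersions, quasi-likelihood F test, no covariate) and a call needed a p under 0.05 after Benjamini-Hochberg adjustment over 13498 genes. All adjusted p-values of genes are from this test unless DESeq2 1.42.0 is named. CPM use TMM-scaled totals. Errors of log2 fold changes restate the test's F. Totals of 10687817 to 22444359 counts made 1 read worth 0.0436 to 0.0918 CPM, and Poisson intervals cover counting error only. Permutation tests were exact and two-sided on log2 CPM and treat littermates as independent. On simulated data without litters, with 200 planted changes, the test recovered 25% of 2-fold and 81% of 4-fold changes and made 7 false calls. Many changes near 2-fold can thus go uncalled.

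The members, lists, motifs and tests were chosen with earlier results of these data known. The text names all 37 members, Kat7 and, from each other list, up to 4 called genes in order of p or, where none was called, the most abundant one. Outside this rule, Map2 is named as the main part of the neuron sum. Dcx and Rbfox3, also neuron genes, were picked with their levels already known. C1qa is named beside these as the marker without reads. Alternatives were other scalings, filters and tests, each library left out, pairs of deleted libraries left out, and litter or replicate number as a block. Promoter windows are from RefSeq, and overlaps of exons from the reference annotation.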

Additional observations from a re-analysis of the deposited data

Results flagged for a closer look

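In 3 of the 70 sets of 4 libraries formed by the 35 tested members and both genotypes, 1 library lay far from the other 3 on the log2 CPM scale, and chance alone gives about 1 in 20. Mt1 was lowest in deleted replicate 2, at 1.29 CPM, against 14.1 to 22.5 CPM in the other deleted libraries. Hepacam was lowest in intact replicate 2, at 5.74 CPM, against 18.8 to 20.8 CPM in the other intact libraries. Nfib was lowest in intact replicate 3, at 243 CPM, against 275 to 279.8 CPM in the other intact libraries.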

How the results depend on the processing

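Over 18 alternatives, Aqp4 and Cd38 kept their calls throughout, Ndrg2 was called in 17 of 19 settings, and of the 624 values for single members 503 kept their direction and side of the threshold. Cd38 reached the minimum of the read filter in no intact library. The number of members called higher was 2 to 17 with 1 library left out, against 10 with all libraries. It was 5 with the replicate block, 4 with littermates summed and 5 with litter as a random block. Over all genes tested, 102 to 1260 were called higher with 1 library left out, against 688 with all libraries. With the replicate block 204 were, with littermates summed 106 and with litter as a random block 235. The number of members called lower was 0 in each setting but 1, being 3 with deleted replicates 1 and 3 left out (8.26% of all genes tested). Members above every intact library numbered 10 to 16 with 1 library left out, and 9 by library totals alone. The share over all tested genes was counted only with all libraries (10.7%) and without deleted replicate 2 (16.1%). Calls over all genes were 189 to 2182 with 1 library left out, 673 by library totals alone, 319 with the replicate block, 2299 with deleted replicates 1 and 3 left out, 193 with littermates summed, 2200 by DESeq2 and 422 with litter as a random block, against 1066. By library totals alone the split was 309 higher and 364 lower, against 688 and 378. Kat7 was called at -8.51 with deleted replicates 1 and 3 left out, a pair chosen for its Kat7 reads.

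No litter held both genotypes, and the correlations between samples did not settle whether the replicate number pairs them. Deviations of same-numbered samples correlated across genes at 0.09608, 0.2206, 0.1103 and 0.3311, and those of differently numbered samples at -0.2695 to 0.2506. Deleted replicates 1 and 3 correlated best with intact replicates 3 and 1, and deleted replicates 2 and 4 with intact replicates 2 and 4. With the replicate block, log2 fold changes turned sign for Slc1a2 (-1.13), Slc4a4 (-0.22), Acsbg1 (-0.14) and Nfia (-0.02).

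Signs also turned elsewhere, and the cause was not tested. With deleted replicates 1 and 3 left out the values were -3.02 for Slc1a2, -1.72 for Dio2, -1.51 for Slc4a4, -0.83 for Acsbg1, -0.75 for Slc1a3, -0.60 for Cd44, -0.29 for Nfia, -0.16 for S100b and 0.03 for Tnc. With deleted replicates 1 and 4 left out they were -1.67 for Slc1a2, -0.65 for Acsbg1 and Mt3, -0.61 for Slc4a4, -0.55 for Slc1a3, -0.02 for Ntsr2, -0.00 for Nfia and 0.03 for Vim. Litter as a random block gave -0.48 for Slc1a2, -0.19 for Acsbg1, -0.09 for Slc4a4 and -0.04 for Nfia. Summed littermates gave 0.14 for Ttyh1. Nfia was also -0.01 with DESeq2-type size factors and by DESeq2, -0.13 by library totals alone and -0.02 with no filter. With 1 library left out, values ran from -1.95 to 1.90 for Slc1a2, -0.47 to 0.87 for Slc1a3, -0.70 to 1.41 for Slc4a4 and -0.51 to 0.56 for Acsbg1, lowest without deleted replicate 1 and highest without deleted replicate 2. They ran from -0.59 to 0.15 for Ttyh1, -0.22 to 0.04 for Nfib, -0.14 to 0.54 for Cd44, -0.47 to 0.05 for Gja1, -0.39 to 0.30 for Mt1 and -0.10 to 0.11 for Nfia. At a minimum count of 50, Gfap, Kcnj10, Ntsr2 and Dio2 were not tested, and 8 members lay above every intact library in all 4 deleted ones. Depth limits Gjb6 and Mt2, at 0 to 3 and 1 to 39 reads.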
